A study of Mus musculus with 8 samples.

Results

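Gene expression in MEFs (fibroblasts cultured from mouse embryos) was compared between all 4 Smurf2-/- arrays and all 4 wild-type arrays profiled. The genes compared were the autosomal genes with a single symbol, 16906 of the 17501 genes named by the 24169 transcript clusters of the arrays, and functions and families were described by how many of their members had the same sign in all 4 pairs. The Smurf2-/- and wild-type arrays each comprised C57B6 cells at passages 7 and 28 and mixed BL cells (129SVJ and NIH Black Swiss) at passages 6 and 33. Passages 6 and 7 are called early, 28 and 33 late. There was 1 array per combination. A pair was the Smurf2-/- and the wild-type array of the same background and passage class. All cells were grown in DMEM with fetal bovine serum, and the labels name no treatment. Per the labels the C57B6 cells came from 1 embryo for each genotype, the mixed BL Smurf2-/- cells from 3 pooled embryos and the mixed BL wild-type cells from 2, at embryonic day 14.5 in one label and day 11.5 in another. The labels do not say whether early and late arrays were passages of the same culture. The 4 arrays of a genotype may therefore not be 4 independent sources of cells. The spread behind each p-value, taken between single arrays, could in part be technical.

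Smurf2 encodes a HECT-type E3 ubiquitin ligase of the NEDD4 family. It is known for marking Smad proteins and receptors of the TGF-beta and BMP pathways for degradation, and also for acting on Rnf20, a ligase that ubiquitinates histone H2B. In fibroblasts it has been linked to entry into senescence, the lasting arrest that cultured embryonic fibroblasts reach after repeated passage, and cells that escape this arrest can be carried on to high passage.

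Values were log2 intensities centred by the authors on each cluster's median over the 8 arrays, so they show how a gene varied between arrays and not its level against another gene. A difference is Smurf2-/- minus wild-type on the log2 scale. Fitted differences came from limma with background and passage class in the model and are given ± SE, n = 4 against 4 arrays, with p-values adjusted over 17501 genes. Within-array values and pair differences are given in the order C57B6 early, C57B6 late, mixed BL early and mixed BL late throughout. In bulk RNA of this kind, fewer cells of a type and less RNA per cell cannot be told apart.

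The targeted gene was low where the labels say it was deleted. The Smurf2 values were 0.71, 0.64, 0.96 and 0.43 in wild-type and -0.43, -1.21, -0.70 and -1.19 in Smurf2-/- arrays. Every Smurf2-/- array lay below every wild-type array, and the fitted difference was -1.57 ± 0.12 (adjusted p = 0.0484). Smurf2 was the 1 autosomal gene past an adjusted p of 0.05, that is 0.00592% of 16906. It missed that threshold in all the alternative fits run except one with a mean-variance trend, and with any single array left out its adjusted p was 0.0981 to 0.578. No file here says whether the deletion covers the probes. The sex of the embryos is not labelled, and sex-linked genes parted the genotypes in every pair: Xist, the RNA that silences one X chromosome in females, differed by -5.14, -4.75, -3.06 and -4.48, and the Y-linked gene Uty by 2.74, 2.17, 2.50 and 1.98. Sex and genotype therefore cannot be told apart in any difference given here. Of 15 fibroblast markers, 8 were in the bright class (log2 of 8 or more on every array, read from the number step of the values), against 0 of 14 macrophage and leukocyte, 0 of 15 endothelial, 1 of 17 epithelial, 0 of 19 skeletal muscle, 0 of 15 neural and 2 of 12 cartilage and bone markers. The list of 13 adipocyte markers is not part of this count.

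Across the autosomal genes, 1854 were higher in Smurf2-/- in all 4 pairs (11.0%) and 1570 were lower in all 4 pairs (9.29%), while 13482 had mixed signs. These shares are the background for every count that follows. Among the 3602 autosomal genes of the bright class they were 12.5% and 12.9%. Lists were not matched for brightness, so a list of mostly bright members passes a multiple of the background more easily, above all on the lower side. All 4 Smurf2-/- arrays lay above all 4 wild-type arrays for 191 genes (1.13%) and below them for 172 (1.02%). The genes of one sign in all 4 pairs had small differences, with a median of 0.17 among the higher and -0.26 among the lower. Differences of at least 0.3 in each pair were found for 28 higher and 95 lower genes, and of at least 0.5 for 4 and 35, so the genes that stood apart by the widest margins lay mostly on the lower side.

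The autosomal genes of smallest p on the higher side began with Thsd7a, a membrane protein with thrombospondin repeats. Its values were -0.63, -0.24, -0.43 and -0.44 in wild-type and 0.78, 0.68, 0.24 and 0.57 in Smurf2-/- arrays. All Smurf2-/- arrays lay above all wild-type arrays, with a fitted difference of 1.00 ± 0.12 (adjusted p = 0.408). Fanca, of the Fanconi anaemia core complex that repairs DNA crosslinks, stood at -0.13, -0.048, -0.25 and -0.25 in wild-type and 0.22, 0.68, 0.048 and 0.45 in Smurf2-/- arrays. Here too the groups did not overlap, and both late Smurf2-/- arrays were the highest (difference 0.52 ± 0.095, adjusted p = 0.651). Asl, the argininosuccinate lyase of the urea cycle, likewise did not overlap, with values of -0.27, -0.26, -0.0099 and -0.030 in wild-type and 0.0099, 0.25, 0.22 and 0.33 in Smurf2-/- arrays and a difference of 0.34 ± 0.068.

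Among the other genes on this side, Gcsh differed by a near-constant step within pairs although its groups overlapped. It encodes the H protein of the mitochondrial glycine cleavage system. Its values were -0.24, -0.35, 0.12 and -0.064 in wild-type and 0.062, -0.062, 0.43 and 0.25 in Smurf2-/- arrays, so that each Smurf2-/- array exceeded its own partner by 0.28 to 0.32 while the mixed BL arrays stood above the C57B6 arrays of the same genotype. Mthfd1l, a mitochondrial enzyme of folate metabolism, differed by 0.41, 0.86, 0.65 and 0.36 in the pairs, and Rrp15, an rRNA processing factor, by 0.29, 0.51, 0.26 and 0.34. The chromatin factor gene Cdca7 differed by 0.33, 0.67, 0.46 and 0.80, with its late arrays above its early arrays in both genotypes. The transporter genes Abca5 and Slc6a17 had fitted differences of 0.88 ± 0.17 and 0.64 ± 0.11, with the C57B6 early pair the widest apart in both. Nt5dc2, Lhfpl2 and AW209491 completed the 12 genes, with 0.79 ± 0.16, 0.39 ± 0.082 and 0.28 ± 0.056, the last of them without overlap.

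A ranking by the smallest of the 4 pair differences brought up genes of a wider range. Slit3, a secreted guidance ligand for Robo receptors, stood at -0.52, -1.30, 1.23 and -1.34 in wild-type and 0.17, -0.17, 1.91 and 1.60 in Smurf2-/- arrays. Its mixed BL early arrays were high in both genotypes, so the groups overlapped, and the mixed BL late pair was the widest apart. Twist2, a basic helix-loop-helix factor of mesenchyme, had pair differences of 0.47, 0.48, 0.78 and 2.45 and Gsta4, a glutathione transferase for lipid peroxidation products, of 1.15, 1.64, 0.52 and 3.02. Both were also widest apart in the mixed BL late pair. Cyba, a membrane subunit of NADPH oxidase, differed by 0.88, 1.92, 0.47 and 1.65, the late pairs exceeding the early pairs. The PAQR family gene Mmd and the glucocorticoid receptor cochaperone gene Fkbp5 had fitted differences of 0.81 ± 0.28 and 0.84 ± 0.45. Usp17ld differed by 1.40 ± 0.64, a value that is uncertain because this deubiquitinase family holds near-identical copies.

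**Figure D1:**
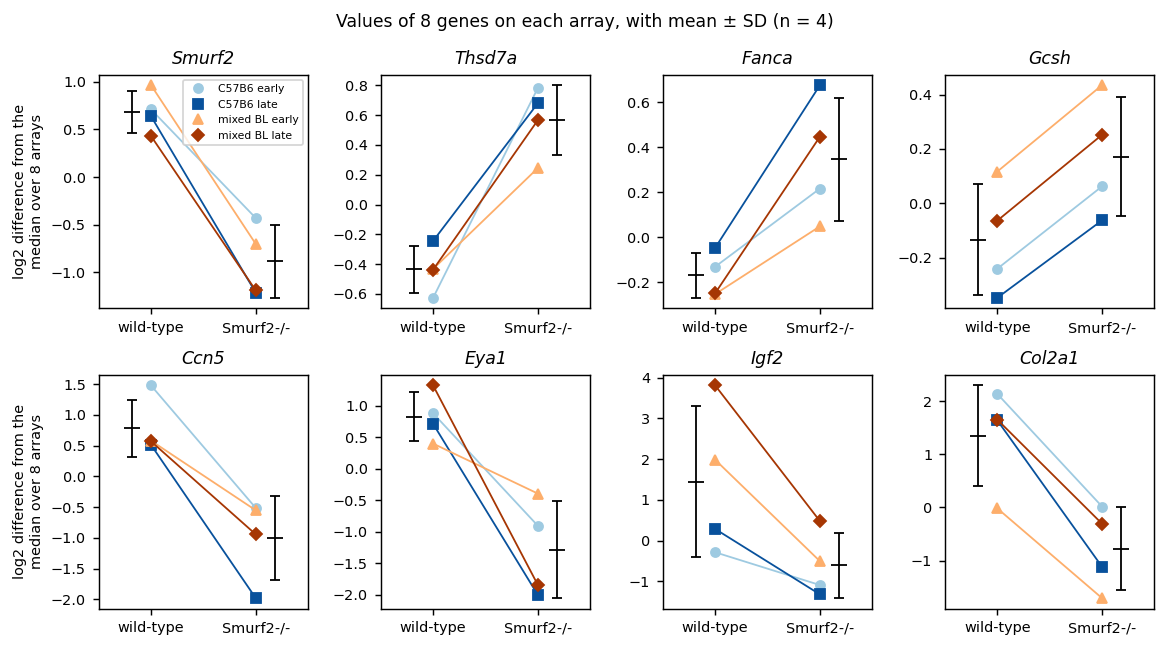
Deposited log2 values of 8 genes on each array, as differences from the gene's median over the 8 arrays (y axis), by genotype (x axis); each line joins the wild-type and the Smurf2-/- array of one pair, and the bars give the mean ± SD over 4 arrays. Smurf2, Thsd7a, Fanca, Ccn5 and Eya1 show no overlap between genotypes, whereas Gcsh, Igf2 and Col2a1 overlap although each of their 4 pairs has the same sign.

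On the lower side Fas, the death receptor, and Plscr2, a phospholipid scramblase, had the smallest p. Fas values were 0.96, -0.11, 0.88 and 0.094 in wild-type and -0.094, -1.29, 0.22 and -0.75 in Smurf2-/- arrays; early arrays stood above late arrays in each genotype and background, so the groups overlapped at a pair-by-pair difference of 0.65 to 1.18. Plscr2 stood at 0.51, 0.26, 0.92 and 0.90 in wild-type and -0.26, -0.99, -0.49 and -0.81 in Smurf2-/- arrays, with no overlap (fitted difference -1.28 ± 0.16, adjusted p = 0.527). Ccn5, a secreted matricellular protein of the CCN family, gave 1.48, 0.51, 0.58 and 0.57 in wild-type and -0.51, -1.98, -0.55 and -0.94 in Smurf2-/- arrays. All 4 Smurf2-/- arrays lay below all wild-type arrays, the wild-type C57B6 early array being the highest and the late C57B6 Smurf2-/- array the lowest (difference -1.78 ± 0.30, adjusted p = 0.651).

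Eya1 and Six2 encode a phosphatase coactivator and a homeodomain factor of a network that acts in the development of several organs. Eya1 values were 0.88, 0.71, 0.40 and 1.32 in wild-type and -0.91, -2.0, -0.40 and -1.84 in Smurf2-/- arrays, without overlap and with differences in the late pairs that exceeded those in the early pairs. Six2 values were 0.15, 0.14, 0.18 and 0.15 in wild-type and -0.26, -0.14, -0.37 and -0.18 in Smurf2-/- arrays; the wild-type arrays stood close together and every Smurf2-/- array was below them (difference -0.39 ± 0.066). The fitted differences were -0.75 ± 0.11 for the sarcosine dehydrogenase gene Sardh, -0.59 ± 0.087 for the cytoskeletal adaptor gene Kank1 and -0.50 ± 0.081 for the lysosomal mannosidase gene Man2b2. Gpcpd1, an enzyme of glycerophosphocholine breakdown, had -0.59 ± 0.11, the glycosidase gene Myorg -0.48 ± 0.067, and Hint3, of the histidine triad family, -0.42 ± 0.077. Fam219a, the last of the 12, had -0.31 ± 0.057. Apart from Fas at an adjusted p of 0.408 and Plscr2, all 12 lower genes had an adjusted p of 0.651.

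**Figure D2:**
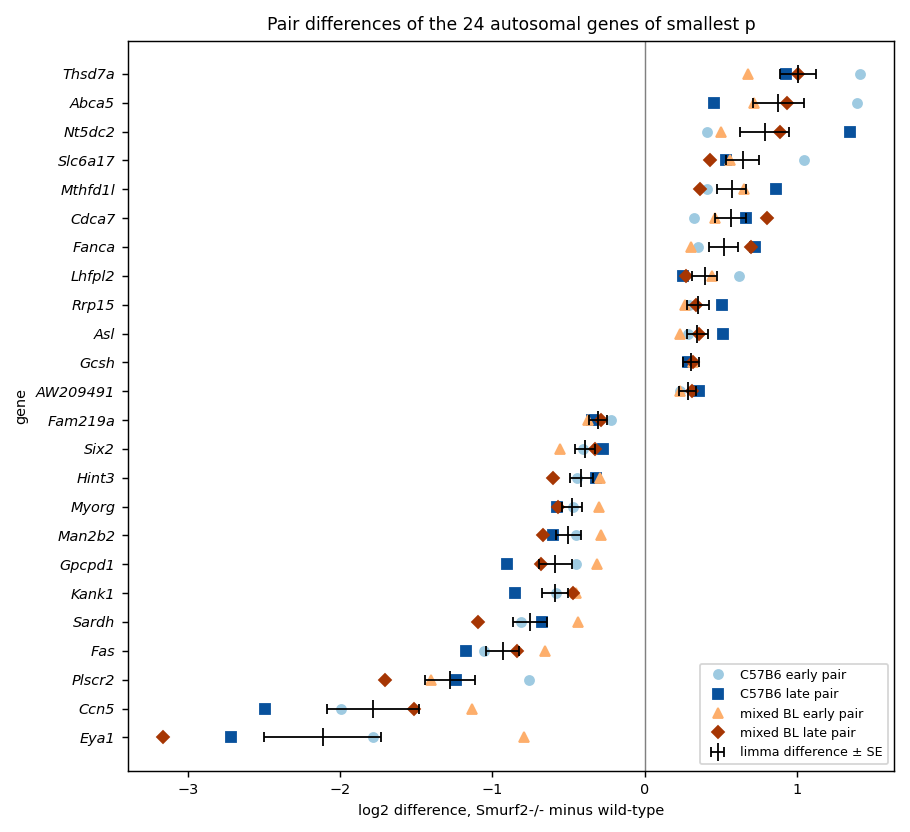
Log2 differences of Smurf2-/- minus wild-type (x axis) for the 12 higher and 12 lower autosomal genes of smallest p other than Smurf2 (y axis), as 4 pair differences per gene (symbols) and the limma difference ± SE (black bars). The genes were chosen to have the same sign in all 4 pairs; the 4 symbols of Gcsh nearly coincide at 0.28 to 0.32, whereas those of Eya1 spread from -0.79 to -3.16.

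By the smallest pair difference, the lower side was led by Col2a1, the chain of cartilage type II collagen. It stood at 2.14, 1.64, -0.017 and 1.65 in wild-type and 0.017, -1.12, -1.71 and -0.31 in Smurf2-/- arrays. Each Smurf2-/- array was lower than its partner by 1.69 to 2.76, although the wild-type mixed BL early array lay at the level of the Smurf2-/- C57B6 early array. Igf2, the paternally expressed growth factor, gave -0.29, 0.29, 1.98 and 3.81 in wild-type and -1.09, -1.32, -0.50 and 0.48 in Smurf2-/- arrays. Its level was higher in mixed BL than in C57B6 for each genotype, and within every pair the Smurf2-/- array was the lower one. Mest, another paternally expressed imprinted gene, was at 0.76, 0.11, 0.27 and 1.33 in wild-type and -0.11, -3.13, -4.60 and -0.65 in Smurf2-/- arrays; the groups did not overlap, and the late C57B6 and early mixed BL Smurf2-/- arrays stood far below the other 6.

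Of the other genes on that ranking, Abi3bp, an extracellular matrix protein, had pair differences of -1.67, -3.76, -1.10 and -3.35, and Mab21l2, a gene of eye and body wall development, of -3.91, -0.84, -1.40 and -3.89. Mab21l2 did not overlap between the genotypes, nor did Ppbp, a CXC chemokine (difference -1.25 ± 0.45). Il1rn, the antagonist of the interleukin-1 receptor, differed by -1.74, -0.89, -1.34 and -1.85 and Fam13c by -0.79, -0.88, -0.79 and -1.50. The mean centred value of 12 cartilage and bone markers, Col2a1 among them, was 0.19 to 0.55 in wild-type and -0.12 to -0.04 in Smurf2-/- arrays. Of these 12 markers 2 were lower and 1 was higher in all 4 pairs, and the medians in the pairs were -0.18, 0.05, -0.05 and -0.16. The corresponding ranges were -0.10 to 0.04 against 0.00 to 0.20 for skeletal muscle and -0.15 to 0.05 against 0.00 to 0.20 for neural and glial markers. The part of such cells in the results was not tested.

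Genes were then grouped by function in 100 lists that named 2582 measured members. A list was described where its share of members with one sign in all 4 pairs was at least 1.5 times the share over all autosomal genes, 11.0% for higher and 9.29% for lower. That held for 53 lists, 33 on the higher and 20 on the lower side, and apart from Smurf2 no member of any list passed the adjusted p, so the lists are given as counts and medians. Where a list median was under 0.1 in size, leaving out 1 array often moved it by over 1.5 times, so no direction is read from it. For comparison, the median fitted difference over all autosomal genes was 0.02, and the medians in the 4 pairs were 0.00, 0.08, 0.01 and -0.03.

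**Figure D3:**
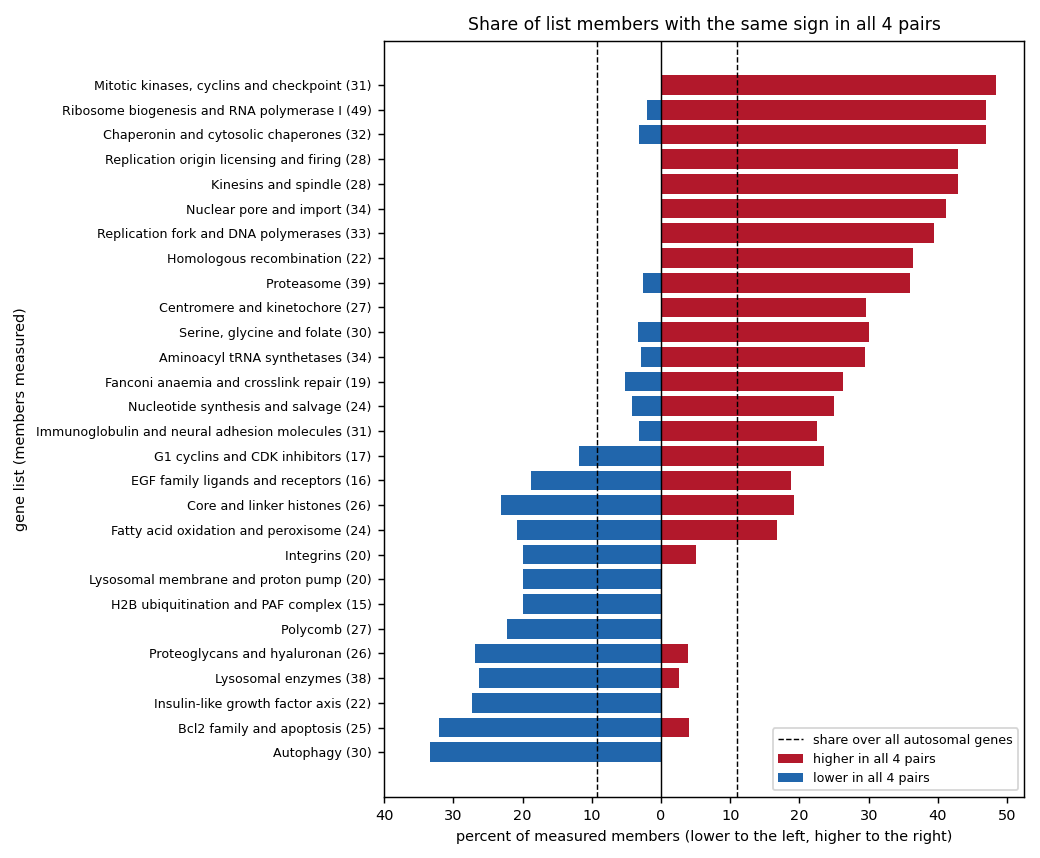
Percent of the measured members of each gene list that were higher (to the right) or lower (to the left) in Smurf2-/- in all 4 pairs, for lists of 12 or more members past 2 times the share over all autosomal genes in either direction (cell type markers left out); dashed lines mark the shares over all autosomal genes, 11.0% and 9.29%. Mitosis, ribosome biogenesis and chaperonin genes stand at the top with 48.4%, 46.9% and 46.9% higher, and autophagy genes at the bottom with 33.3% lower.

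Among the lists, genes of mitosis had the highest share on the higher side. Of the mitotic kinases, cyclins and checkpoint genes 15 of 31 measured members (48.4%) were higher in all 4 pairs and 0 lower, and all 31 were higher in the fit. Among the kinesins and spindle genes it was 12 of 28 measured members (42.9%), and among centromere and kinetochore genes 8 of 27 measured members (29.6%), again with 0 lower. Aurka, the kinase that matures centrosomes, stood at -0.30, -0.050, -0.15 and -0.37 in wild-type and 0.10, 0.95, 0.050 and 0.60 in Smurf2-/- arrays. Its groups did not overlap, and the late pairs were wider apart than the early pairs (difference 0.64 ± 0.17). Nek2, a centrosome kinase, and Anln and Prc1, which act in cytokinesis, also showed no overlap, with 0.71 ± 0.22, 0.51 ± 0.17 and 0.48 ± 0.17. Bub1b of the spindle checkpoint and Ube2c, the E2 enzyme of the anaphase-promoting complex, differed by 0.030, 1.00, 0.43 and 1.17 and 0.060, 0.55, 0.21 and 0.51 in the pairs. Among the other named members were the citron kinase gene Cit at 0.42 ± 0.13, Kntc1 of the kinetochore at 0.73 ± 0.23, and the centromere genes Cenpn, Zwilch and Cenpa at 0.59 ± 0.19, 0.63 ± 0.23 and 0.59 ± 0.22.

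The size of the mitotic differences followed passage. The medians in the pairs were 0.03, 1.00, 0.02 and 0.64 for mitotic kinases, 0.06, 1.01, 0.02 and 0.68 for kinesins and 0.01, 0.59, 0.04 and 0.39 for centromere genes, so the early pairs contributed a sign and little size. The fitted medians were 0.45, 0.46 and 0.29, and once the C57B6 late Smurf2-/- array was removed 0.25, 0.27 and 0.16. In both early pairs 15 of the 31 mitotic kinase list members were higher and 5 lower, against 28.1% and 25.9% of all autosomal genes.

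Promoter windows are shown for the mitotic genes because many of them are known to carry a CCAAT box, bound by NF-Y, and a cell cycle genes homology region (CHR), bound by the MuvB complexes. The windows run from 250 bases before to 50 after the annotated start, 5′ to 3′ on the gene's strand, from RefSeq on build GRCm38.p6. Capitals mark the CCAAT box, searched as the letters CCAAT on either strand, and the CHR, searched as TTTGAA likewise. The Aurka window is at chr2:172370521-172370820 on the minus strand, Bub1b at chr2:118597961-118598260 and Ube2c at chr2:164769679-164769978, both on the plus strand.
Aurka: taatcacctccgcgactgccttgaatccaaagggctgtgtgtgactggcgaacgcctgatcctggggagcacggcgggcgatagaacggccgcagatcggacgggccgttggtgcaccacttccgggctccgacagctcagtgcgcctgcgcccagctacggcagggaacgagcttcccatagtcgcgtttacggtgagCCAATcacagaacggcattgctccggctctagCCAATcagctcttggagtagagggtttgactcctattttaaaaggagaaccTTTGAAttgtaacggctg
Bub1b: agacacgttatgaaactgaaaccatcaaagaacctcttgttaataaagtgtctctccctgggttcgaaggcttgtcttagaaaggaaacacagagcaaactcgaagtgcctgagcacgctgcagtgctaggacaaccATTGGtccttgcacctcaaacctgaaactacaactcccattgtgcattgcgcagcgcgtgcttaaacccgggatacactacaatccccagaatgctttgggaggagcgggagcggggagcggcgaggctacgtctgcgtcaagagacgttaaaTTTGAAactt
Ube2c: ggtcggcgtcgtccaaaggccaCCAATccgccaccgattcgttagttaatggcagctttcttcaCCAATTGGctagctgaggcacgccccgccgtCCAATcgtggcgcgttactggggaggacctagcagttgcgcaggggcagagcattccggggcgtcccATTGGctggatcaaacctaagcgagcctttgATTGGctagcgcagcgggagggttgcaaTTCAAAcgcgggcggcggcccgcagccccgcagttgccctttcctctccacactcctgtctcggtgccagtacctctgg
The Aurka window holds 2 CCAAT matches and 1 CHR match near its 3′ end, Bub1b 1 and 1, and Ube2c 6 and 1, a pair of the CCAAT matches overlapping on opposite strands. Over the 3 mitosis lists, 71.0% of 31 windows of genes higher in all 4 pairs held the CHR letters, 49.0% of 49 windows of the other members, and 17.9% of all 32851 windows. The CCAAT letters were in 67.7%, 73.5% and 37.4%. A match describes letters in this window and is not shown to be a bound site.

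DNA replication genes had a similar pattern. Of the genes for licensing and firing of origins 12 of 28 measured members (42.9%) were higher in all 4 pairs, and of those for the replication fork and DNA polymerases 13 of 33 measured members (39.4%), with 0 lower in either. The medians in the pairs were 0.06, 0.85, 0.13 and 0.35 for origins and 0.00, 0.88, 0.13 and 0.39 for forks. Orc2, a subunit of the origin recognition complex, differed by a like amount in each pair, 0.16, 0.23, 0.19 and 0.17, whereas Cdt1, which loads the Mcm helicase, differed by 0.20, 1.30, 0.28 and 0.82 and Dbf4, the activator of the Cdc7 kinase, by 0.15, 1.06, 0.13 and 1.56. Dbf4 and the clamp loader gene Rfc2 did not overlap between the genotypes (0.73 ± 0.26 and 0.44 ± 0.15). Pold2, Pole and Rnaseh2a, for a subunit of polymerase delta, polymerase epsilon and a ribonuclease of replicated DNA, had fitted differences of 0.78 ± 0.26, 0.67 ± 0.21 and 0.39 ± 0.12. The fitted median was 0.32 for origins and 0.34 for forks, and 0.19 for both without the late C57B6 Smurf2-/- array.

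The Mcm genes, which encode the replicative helicase and relatives, stood higher in all 4 pairs in 5 of 10 members, with Mcm6, Mcm7 and Mcm5 at 0.45 ± 0.17, 0.45 ± 0.18 and 0.54 ± 0.23. The Mcm6 window, at chr1:128359656-128359955 on the minus strand of GRCm38.p6 from RefSeq, is shown as an example of E2F letters, the motif known from replication genes. Capitals mark TTTGGCGC, TTTCGCGC, TTTCCCGC or TTTGCCGC on either strand.
Mcm6: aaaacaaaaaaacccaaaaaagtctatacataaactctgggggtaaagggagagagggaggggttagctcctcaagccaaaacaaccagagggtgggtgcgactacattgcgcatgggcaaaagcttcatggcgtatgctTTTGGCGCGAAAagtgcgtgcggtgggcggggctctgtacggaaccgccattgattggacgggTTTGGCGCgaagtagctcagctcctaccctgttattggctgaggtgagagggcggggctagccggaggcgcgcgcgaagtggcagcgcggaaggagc
It holds 3 matches, of which a pair overlaps on opposite strands. Over both replication lists, 35.7% of 28 windows of genes higher in all 4 pairs and 32.4% of 34 windows of the other members held these letters, against 2.26% of all windows.

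Of the 4 DNA repair lists 3 were described on the higher side, while end joining and damage checkpoint genes, with 1 of 21 higher (4.76%) and 0 lower, were not. Homologous recombination genes were higher in all 4 pairs in 8 of 22 measured members (36.4%), with 0 lower, Fanconi anaemia and crosslink repair genes in 5 of 19 measured members (26.3%), and mismatch, base and nucleotide excision repair genes in 5 of 30 measured members (16.7%). Beside Fanca, the named members were Fanci and Fance at 0.56 ± 0.23 and 0.16 ± 0.065. In recombination these were Mre11a, a nuclease of double-strand breaks, at 0.54 ± 0.17, the translocase gene Rad54b at 0.47 ± 0.17 and Brca1 at 0.39 ± 0.20. In excision repair Lig3, a DNA ligase, did not overlap (0.31 ± 0.11), and the abasic site nuclease gene Apex1 differed by 0.16 ± 0.076. Ung and Nthl1, glycosylases that remove damaged bases, differed by 0.17 ± 0.093 and 0.17 ± 0.11. The recombination medians were 0.03, 0.69, 0.04 and 0.19 in the pairs, and those of the Fanconi list -0.02, 0.55, 0.04 and 0.03, so that the C57B6 late pair held most of the size. Without the late C57B6 Smurf2-/- array the fitted medians were 0.09 against 0.27 for recombination and 0.04 against 0.16 for the Fanconi list, and the excision repair median of 0.12 was 0.07 without the late mixed BL Smurf2-/- array.

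G1 regulators went both ways. Of 17 members, 4 were higher in all 4 pairs: Ccne1, the cyclin E gene, at 0.54 ± 0.18, Skp2, which targets the inhibitor p27 for degradation, at 0.34 ± 0.12, and the Cdk-binding genes Cks2 and Cks1b at 0.56 ± 0.20 and 0.68 ± 0.25. Ccnd2 and Cdkn1b, the gene of p27, were lower in all 4 pairs. The list median of 0.21 was 0.03 without the late C57B6 Smurf2-/- array.

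Genes of the metabolism that feeds nucleotide synthesis lay on the higher side too. Of the serine, glycine and folate genes 9 of 30 measured members were higher in all 4 pairs and 1, Sardh, was lower, with pair medians of 0.11, 0.17, 0.14 and 0.28 that did not come from the late pairs alone; the fitted median was 0.24, and between 0.11 with the late mixed BL wild-type array left out and 0.30 with the early C57B6 Smurf2-/- array left out. Shmt2, the mitochondrial serine hydroxymethyltransferase, stood at -1.07, -0.057, -0.17 and 0.077 in wild-type and -0.53, 0.057, 0.13 and 0.96 in Smurf2-/- arrays. The wild-type C57B6 early array was the lowest and the mixed BL late pair the widest apart (difference 0.46 ± 0.14). Pfas, of purine synthesis, differed by 0.57 ± 0.17, and Psat1, Atic, Gart, Ppat and Adsl were the further higher members. Among nucleotide synthesis and salvage genes 6 of 24 measured members (25.0%) were higher. Cad, the multifunctional enzyme that starts pyrimidine synthesis, gave -0.31, -0.19, -0.073 and -0.41 in wild-type and 0.073, 0.84, 0.18 and 0.64 in Smurf2-/- arrays, without overlap (difference 0.68 ± 0.18). Aprt, Rrm1 and Umps, for purine salvage, ribonucleotide reductase and the last steps of pyrimidine synthesis, differed by 0.33 ± 0.11, 0.43 ± 0.17 and 0.36 ± 0.19. The median of that list was 0.15, and 0.08 without the late C57B6 Smurf2-/- array.

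Several lists of energy metabolism passed the share. Medians in the pairs were 0.08, 0.48, 0.01 and -0.03 for glycolysis and -0.01, 0.39, 0.02 and 0.17 for the citric acid cycle. They were 0.05, 0.22, 0.07 and -0.03 for complex I and 0.05, 0.27, 0.04 and -0.02 for complexes III, IV and V. The C57B6 late pair thus held most of the size, and the mixed BL late pair had the opposite sign in all but the citric acid cycle. Glycolysis and lactate genes were split, with 5 of 23 higher in all 4 pairs and 4 lower: the glycolytic enzyme genes Pgam1, Ldha, Pkm and Aldoa differed by 0.27 ± 0.070, 0.28 ± 0.077, 0.31 ± 0.093 and 0.27 ± 0.092 and the transporter gene Slc2a3 was the fifth, whereas Eno2, Pdk4, Pdk2 and Pfkfb2 were lower. The glycolysis median of 0.27 was 0.10 without the late C57B6 wild-type array, and those of the pentose phosphate pathway and complex I, 0.21 and 0.07, were 0.09 and 0.01 without it. In the pentose phosphate pathway the genes Rpia and Pgd, 2 of 6, were higher at 0.26 ± 0.11 and 0.24 ± 0.15. All 20 citric acid cycle genes were higher in the fit, but 4 in all 4 pairs: Mdh2 (0.23 ± 0.069), Sdhb (0.32 ± 0.11), Suclg2 (0.51 ± 0.27) and Cs (0.076 ± 0.053). Complex I subunit genes were higher in 7 of 33 measured members (21.2%) and those of complexes III, IV and V in 6 of 32 measured members (18.8%), with a median of 0.08 for the latter. Ndufs4 of complex I showed no overlap at 0.34 ± 0.097, and Ndufs6, Ndufb3 and Ndufa10 stood at 0.41 ± 0.15, 0.20 ± 0.072 and 0.18 ± 0.077. In the other complexes the named genes were Cox5a, Atp5d, Cox4i1 and Uqcrfs1, between 0.18 and 0.34.

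Ribosome biogenesis genes had a share close to that of the mitotic kinases. Of the ribosome biogenesis and RNA polymerase I genes 23 of 49 measured members (46.9%) were higher in all 4 pairs and 1 lower, and the medians were 0.13, 0.26, 0.17 and 0.24 in the pairs. The late medians exceeded the early ones, as among all genes higher in all 4 pairs, where the early and late medians were 0.11 and 0.22. In the early pairs 33 of 49 members were higher in both and 1 was lower in both. The fitted median was 0.20, and between 0.14 with the late mixed BL wild-type array left out and 0.26 with the early C57B6 Smurf2-/- array left out. Tcof1, the treacle protein that supports rRNA transcription, stood at -0.10, -0.046, -0.039 and -0.12 in wild-type and 0.039, 0.66, 0.15 and 0.66 in Smurf2-/- arrays. Its groups did not overlap (difference 0.45 ± 0.13). Nop16, a factor of the large ribosomal subunit, differed by 0.32, 0.77, 0.36 and 0.73 in the pairs and Mybbp1a, a nucleolar protein, by 0.34, 0.68, 0.20 and 0.81. Polr1d, a subunit shared by RNA polymerases I and III, differed by 0.10, 0.27, 0.30 and 0.29. Fibrillarin (Fbl), nucleolin (Ncl), Gar1, Nhp2, Pes1 and Nop58 were further higher members. The E-box letters CACGTG, known as a site of Myc and Max, were in 22.0% of 50 windows of this list and 7.15% of all windows, as a description of the sequence. They were in 8.82% of windows of the autosomal genes, 9.52% for those higher and 11.0% for those lower in all 4 pairs. The immediate early list, which did not reach the share for description, had them in 20.7% of 29 windows, so they are not particular to this list.

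Other genes of protein synthesis were described on the same side with smaller medians. Cytosolic ribosomal protein genes were higher in 9 of 44 measured members (20.5%) and 0 lower, with a median of 0.08. Rpsa, Rps3, Rps14 and Rpl27 differed by 0.27 ± 0.068, 0.20 ± 0.075, 0.19 ± 0.078 and 0.17 ± 0.073; these genes have many pseudogene copies, which makes their values uncertain. Aminoacyl tRNA synthetase genes were higher in 10 of 34 measured members (29.4%), Farsb at 0.26 ± 0.086, Rars at 0.34 ± 0.13, Kars at 0.31 ± 0.12 and the mitochondrial Nars2 at 0.28 ± 0.11. The list of mitochondrial ribosomal proteins, with 12 of 75 higher and 0 lower, did not reach the share. Splicing genes went both ways, with 9 of 42 measured members (21.4%) higher and 6 lower. Snrpd2 (0.48 ± 0.13), Sf3a1 (0.34 ± 0.095, no overlap), Snrpa (0.27 ± 0.081) and Srsf9 (0.15 ± 0.057) were on the higher side, and Sf3b1, Hnrnpa2b1, Srsf6, Srsf3, Snrpb2 and Prpf6 on the lower.

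Genes of the nuclear pore and of nuclear import were higher in 14 of 34 measured members (41.2%), with 0 lower. Rcc1, the exchange factor that charges Ran with GTP, stood at -0.32, -0.38, 0.082 and -0.30 in wild-type and -0.082, 0.52, 0.35 and 0.64 in Smurf2-/- arrays, the late Smurf2-/- arrays being the highest (difference 0.59 ± 0.16). Among the pore proteins Nup54 did not overlap (0.47 ± 0.15), and Nup188 and Nup62 differed by 0.33 ± 0.11 and 0.52 ± 0.17. Kpna2, an importin alpha, differed by 0.45 ± 0.15. Pair medians were 0.03, 0.31, 0.13 and 0.36, and the fitted median of 0.27 was between 0.15 with the late C57B6 Smurf2-/- array left out and 0.36 with the early C57B6 Smurf2-/- array left out.

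The cytosolic chaperonin, a ring complex that folds actin and tubulin, was higher in 5 of the 9 measured genes with the symbol stem Cct. Cct3 stood at -0.27, -0.27, -0.076 and 0.076 in wild-type and -0.10, 0.40, 0.21 and 0.32 in Smurf2-/- arrays. The groups overlapped, the Smurf2-/- C57B6 early array lying below both wild-type mixed BL arrays (difference 0.34 ± 0.097). Cct4 and Cct6a differed by 0.31 ± 0.10 and 0.27 ± 0.12. Over the list of chaperonins and cytosolic chaperones 15 of 32 measured members (46.9%) were higher in all 4 pairs and 1, Dnaja1, was lower. In the fit the list was split, with 19 members higher and 13 lower. The mitochondrial pair Hspd1 and Hspe1 stood at 0.47 ± 0.17 and 0.22 ± 0.087. List medians in the pairs were 0.10, 0.14, 0.08 and 0.10, of like size at each passage. Their fitted median of 0.11 was between 0.05 with the late C57B6 Smurf2-/- array left out and 0.17 with the early C57B6 Smurf2-/- array left out.

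Proteasome genes were higher in 14 of 39 measured members (35.9%) and lower in 1, Psmb1. Psmc4, an ATPase of the regulatory particle, stood at -0.14, -0.27, -0.028 and -0.16 in wild-type and 0.055, 0.22, 0.48 and 0.028 in Smurf2-/- arrays, and every Smurf2-/- array lay above every wild-type array (difference 0.35 ± 0.10). Psma1 and Psmb6 of the core particle differed by 0.18 ± 0.063 and 0.19 ± 0.071, and Psmd11, Psmd3 and Psmd12 of the lid by 0.22 ± 0.083, 0.26 ± 0.12 and 0.21 ± 0.11. Pair medians were 0.08, 0.27, 0.08 and 0.06, the C57B6 late pair being the widest apart, and the fitted median of 0.15 was between 0.08 with the late C57B6 Smurf2-/- array left out and 0.19 with the early C57B6 Smurf2-/- array left out.

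**Figure D4:**
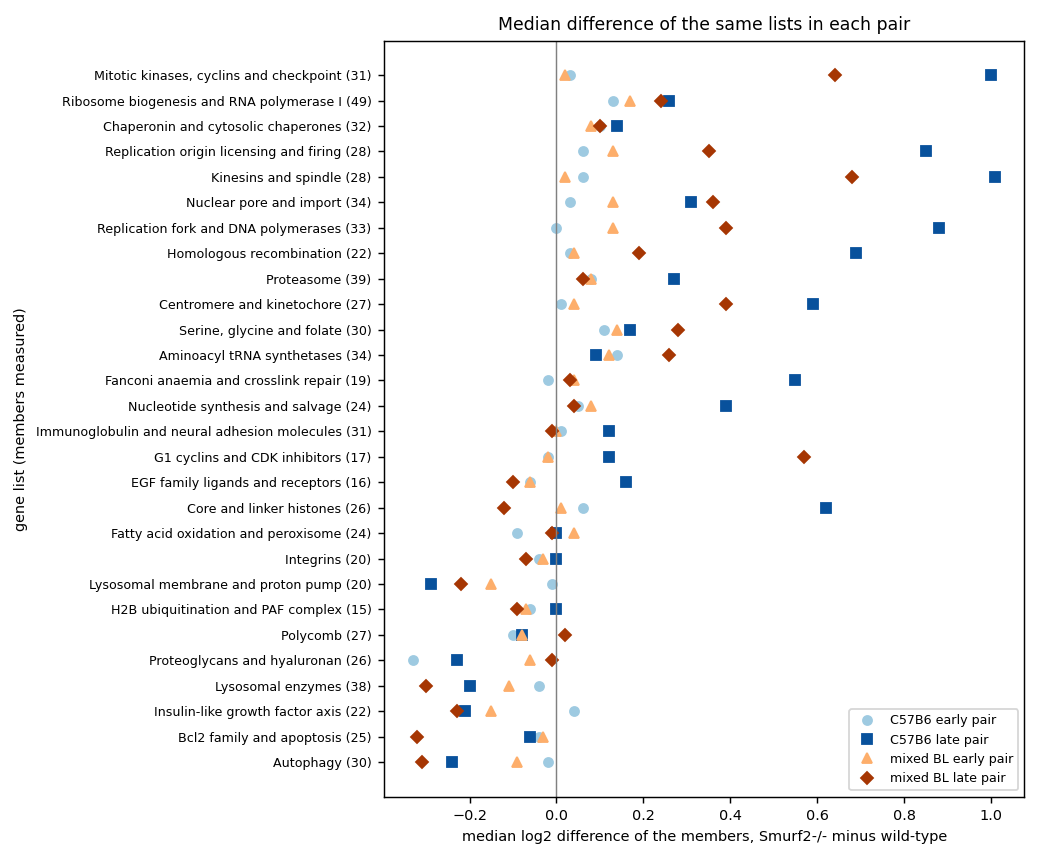
Median log2 difference of the members of each gene list (x axis) in each of the 4 pairs (symbols), for the same lists as in the plot of shares. Mitosis and replication lists reach 0.35 to 1.01 in the late pairs against 0.00 to 0.13 in the early pairs, whereas the ribosome biogenesis list lies between 0.13 and 0.26 in all 4.

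Autophagy genes had the highest share on the lower side. Among them 10 of 30 measured members (33.3%) were lower in all 4 pairs and 0 higher, and 28 of 30 were lower in the fit. Atg3, the E2-like enzyme that lipidates LC3, stood at 0.36, -0.016, 0.40 and -0.046 in wild-type and 0.016, -0.63, 0.30 and -0.43 in Smurf2-/- arrays. The late C57B6 Smurf2-/- array was the lowest and the groups overlapped (difference -0.36 ± 0.092). Map1lc3b, which encodes LC3B itself, differed by -0.20, -0.41, -0.090 and -1.04 in the pairs. Atg13 of the Ulk1 kinase complex and the receptor gene Calcoco1 showed no overlap (-0.24 ± 0.097 and -0.44 ± 0.18). Nbr1, Ulk1, Rb1cc1, Atg9a, Pik3c3 and Atg14 were the other lower members, and list medians were -0.02, -0.24, -0.09 and -0.31 in the pairs. The fitted median of -0.17 was between -0.19 with the early C57B6 Smurf2-/- array left out and -0.10 with the late mixed BL wild-type array left out.

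Lysosomal genes lay on the same side. Of the lysosomal enzymes 10 of 38 measured members (26.3%) were lower and 1, Ctsc, was higher, and of the lysosomal membrane and proton pump genes 4 of 20 measured members were lower and 0 higher. Fuca1, the lysosomal fucosidase, stood at 0.59, -0.29, 0.49 and -0.14 in wild-type and 0.34, -0.59, 0.14 and -0.67 in Smurf2-/- arrays, and each pair differed by 0.25 to 0.54. Ctsd, the protease cathepsin D, gave 0.24, -0.41, 0.30 and -0.020 in wild-type and 0.029, -1.20, 0.020 and -1.14 in Smurf2-/- arrays; its late Smurf2-/- arrays were far below the other 6 (difference -0.60 ± 0.17). Acp2, lysosomal acid phosphatase, differed by -0.47 ± 0.13, the proton pump subunits Atp6v0a1 and Atp6v1a by -0.27 ± 0.079 and -0.24 ± 0.094, the receptor gene Scarb2 by -0.30 ± 0.20 and Tfeb, a transcription factor of lysosomal genes, by -0.19 ± 0.065. The letters CACGTG, which are also part of the element Tfeb is known to bind, were in 27.8% of 36 windows of the lysosomal enzyme list. They were in 7.15% of all windows, 8.82% of those of the autosomal genes and 20.7% of those of the immediate early list. The fitted medians were -0.18 for enzymes and -0.19 for membrane genes, and -0.09 and -0.10 after quantile normalisation. With single arrays removed they were nearest to 0 at -0.10, without the late mixed BL wild-type array, and at -0.11, without the late C57B6 Smurf2-/- array.

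Of the 9 extracellular matrix lists 3 were described on the lower side, through few members each. Serpins and plasminogen genes were described on the higher side, and basement membrane collagens, collagen processing, elastic fibres, laminins and ADAM proteases did not reach the share. Proteoglycan and hyaluronan genes were lower in 7 of 26 measured members (26.9%) and higher in 1, Cd44, the hyaluronan receptor. Fmod, fibromodulin, stood at 0.92, -0.027, 0.29 and 0.027 in wild-type and 0.14, -0.14, -0.51 and -0.66 in Smurf2-/- arrays, with the late C57B6 pair the closest together (difference -0.60 ± 0.15). The cell surface proteoglycans Sdc4, Sdc2 and Gpc2 differed by -0.55 ± 0.24, -0.65 ± 0.29 and -0.37 ± 0.15, and Omd, Ogn and Agrn were lower too. The proteoglycan medians in the pairs were -0.33, -0.23, -0.06 and -0.01, so that the C57B6 pairs held most of the size. The list median of -0.22 was between -0.34 with the late mixed BL Smurf2-/- array left out and -0.07 with the early C57B6 wild-type array left out. Of the fibrillar collagens Col2a1 and Col11a1, both of cartilage, were lower and Col24a1 was higher in all 4 pairs (2 and 1 of 14). Col11a1 differed by -0.44, -1.56, -0.69 and -1.42. Timp2, Mmp2 and Mmp3 were the 3 of 19 metalloproteinase and inhibitor genes that were lower, at -0.31 ± 0.067, -0.49 ± 0.19 and -0.94 ± 0.68. In Mmp3 the C57B6 early pair alone held the size, -3.19, -0.19, -0.18 and -0.18.

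Among adhesion genes, the integrin genes Itga1 and Itga2, both collagen receptor subunits, were lower without overlap. Itga1 stood at 1.05, 0.80, 0.027 and 1.27 in wild-type and -0.027, -1.28, -0.44 and -0.95 in Smurf2-/- arrays (difference -1.46 ± 0.38) and Itga2 differed by -1.19, -0.88, -0.29 and -2.74. Itgb5 and Itga10 made up the 4 of 20 lower integrins (-0.47 ± 0.22 and -0.13 ± 0.091), and Itga4 was higher. Adhesion molecules of the immunoglobulin and neural kind were higher in 7 of 31 measured members (22.6%) and lower in 1. Ncam1, the neural cell adhesion molecule, stood at -0.88, -1.10, 0.41 and -1.22 in wild-type and 0.063, 0.51, 0.71 and -0.063 in Smurf2-/- arrays (difference 1.00 ± 0.34), with the mixed BL early pair the closest together. Nectin2, Nrcam and Alcam differed by 0.26 ± 0.076, 0.17 ± 0.082 and 0.51 ± 0.25, and the protocadherin genes Pcdh9 and Pcdh7, 2 of the 10 that lie outside the gene clusters, by 0.25 ± 0.13 and 0.37 ± 0.21. In the clustered Pcdhb family 5 of 22 were lower (22.7%) and 0 higher, with a median of -0.20. Its medians in the pairs were -0.12, 0.01, -0.02 and -0.63, so that the mixed BL late pair held most of the size. Among cadherins 4 of 31 were higher and 4 lower. Whether these classes differ from each other was not tested.

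The insulin-like growth factor axis was lower in 6 of 22 measured members (27.3%), with 0 higher. Besides Igf2 these were Igf1, the second ligand of the axis, Irs1, an adaptor of its receptor, the binding protein genes Igfbp5 and Igfbp4, and Pappa, the protease that frees ligand from binding proteins. Igf1 stood at -0.066, 0.33, 0.066 and 2.51 in wild-type and -0.35, -1.71, -0.45 and 0.29 in Smurf2-/- arrays, and both late pairs differed by over 2 while the early pairs differed by 0.28 and 0.52. Irs1 differed by -0.64, -0.31, -0.15 and -0.39 in the pairs and Igfbp5 by -2.03, -0.36, -0.74 and -0.88, the latter widest apart in the C57B6 early pair. List medians in the pairs were 0.04, -0.21, -0.15 and -0.23, and the fitted median was -0.15.

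Genes of BMP signalling, one of the pathways Smurf2 is known to act on, were lower in 5 of 32 measured members (15.6%) and higher in 0. The fitted median of the list was -0.05, so no direction is read for the list as a whole. Atoh8, a helix-loop-helix gene induced by BMP, stood at 0.25, 0.19, 0.13 and 0.32 in wild-type and -0.19, -0.76, -0.13 and -0.96 in Smurf2-/- arrays, without overlap (difference -0.73 ± 0.17). Id2, an inhibitor of differentiation factors, differed by -0.41, -1.35, -0.43 and -1.63, Dlx5, a homeobox factor of bone, by -0.87, -0.12, -1.58 and -1.03, and the receptor gene Bmpr1a by -0.16, -0.41, -0.21 and -0.50. Twsg1, which encodes a modulator of BMP ligands, was the fifth. The TGF-beta ligands, receptors and Smads did not reach the share for description, with 1 of 34 higher and 1 lower, nor did the TGF-beta induced genes, with 3 of 27 lower and 0 higher in all 4 pairs and pair medians of 0.06, -0.83, -0.11 and -0.44.

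Developmental transcription factors included genes with wide differences in both directions. Of the Sox, Fox and T-box factors 6 of 40 measured members were lower and 2 higher. Foxc1, a forkhead factor of mesenchyme, stood at 0.81, 0.38, 0.047 and 0.44 in wild-type and -0.047, -0.19, -1.02 and -1.56 in Smurf2-/- arrays, without overlap (difference -1.12 ± 0.23). Sox6 of cartilage differed by -1.25, -0.67, -0.35 and -1.12, Foxn3 by -0.078, -0.58, -0.20 and -0.85 and Foxd1 by -0.72, -3.44, -0.94 and -0.43. Of the mesenchymal and homeobox factors 11 of 53 were higher and 8 lower. On the higher side were Irx6 (0.17 ± 0.051, no overlap), Osr1 of lateral mesoderm (0.67 ± 0.24), Lhx6 (0.28 ± 0.12) and Twist2, and the lower ones included Eya1, Six2 and Dlx5. Sox2 was higher without overlap at 0.44 ± 0.18; its C57B6 early pair differed by 1.03 and its mixed BL early pair by 0.043. Among Kruppel-like factors and nuclear receptors 5 of 36 were lower, with Thrb, Nr1h3, Rora and Klf12 at -0.20 ± 0.068, -0.17 ± 0.057, -0.52 ± 0.18 and -0.31 ± 0.12.

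Apoptosis genes were lower in 8 of 25 measured members (32.0%) and higher in 1, Casp4. Their fitted median was -0.05, from which no direction of the whole list is read. The lower members were on both sides of the pathway: Mcl1, Bcl2l1, Bcl2l2, Birc2 and Cflar are known as inhibitors of cell death, and Diablo, Bmf and Casp12 as promoters. Mcl1 stood at 0.38, 0.060, 0.084 and -0.22 in wild-type and 0.18, -0.85, -0.060 and -0.78 in Smurf2-/- arrays, with late Smurf2-/- arrays the lowest (difference -0.45 ± 0.14), and Birc2, Diablo and Casp12 differed by -0.31 ± 0.12, -0.21 ± 0.11 and -0.63 ± 0.35. Targets of p53 were lower in 6 of 36 measured members (16.7%) and higher in 2. After Fas, these were Trp53inp1 and Trp53inp2, Btg2, Sesn3 and Gadd45b. Sesn3, a stress-induced regulator of growth signals, differed by a like amount in each pair, -0.45, -0.45, -0.47 and -0.54, and Trp53inp1 and the antiproliferative gene Btg2 by -0.71 ± 0.17 and -0.72 ± 0.20. The medians of the p53 target list in the pairs were -0.17, 0.11, -0.08 and -0.51, the C57B6 late pair having the opposite sign. Its fitted median was -0.19, and between -0.24 with the early mixed BL Smurf2-/- array left out and -0.05 with the late mixed BL Smurf2-/- array left out.

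Several chromatin lists were described on the lower side. Polycomb genes were lower in 6 of 27 measured members (22.2%) and higher in 0, with Mtf2, Asxl2, Phf1 and Ring1 at -0.20 ± 0.082, -0.23 ± 0.11, -0.33 ± 0.16 and -0.14 ± 0.067. In both early pairs 16 of 27 Polycomb genes were lower and 0 higher, against 25.9% and 28.1% of all autosomal genes. The Polycomb medians in the pairs were -0.10, -0.08, -0.08 and 0.02, the mixed BL late pair having the opposite sign. Histone deacetylase, acetyltransferase and demethylase genes were lower in 6 of 41 and higher in 2, among the lower the acetyltransferase genes Ep300 and Kat6b (-0.39 ± 0.13 and -0.38 ± 0.16) and Hdac11 and Kdm2a (-0.19 ± 0.072 and -0.19 ± 0.075). Of the genes for H2B ubiquitination and the PAF complex, 3 of 15 were lower: Ube2b, the E2 enzyme that works with Rnf20, differed by -0.27, -0.38, -0.19 and -0.087, and Paf1 and Eny2 by -0.29 ± 0.12 and -0.27 ± 0.17. Core and linker histones went both ways, 6 of 26 lower and 5 higher in all 4 pairs. H2bc4, H4c9, H2bc8 and H1f2 were on the lower side at -0.97 ± 0.31, -0.52 ± 0.20, -0.34 ± 0.17 and -0.72 ± 0.36, and H1f5, H2az1, H4c6, H2bc3 and H2bc14 on the higher. In the fit 17 of the 26 were higher, and the medians in the pairs were 0.06, 0.62, 0.01 and -0.12. Histone genes are near-identical copies, so their values are uncertain.

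Some further lists passed the share in small numbers. Glutathione S-transferases were higher in 4 of 20, Gsta4 with Gstm2, Gsto2 and Gsto1 (0.19 ± 0.098, 0.42 ± 0.23 and 0.70 ± 0.43). Metallothionein and zinc transport genes were lower in 4 of 24, among them Mt2 at -0.56, -0.61, -0.62 and -2.30 in the pairs and the zinc importer gene Slc39a14 at -0.27 ± 0.098, without overlap. EGF family genes were split 3 and 3 of 16, with Lrig1, a feedback inhibitor, at 0.34, 1.81, 0.53 and 0.64. Fatty acid oxidation and peroxisome genes were split 4 higher and 5 lower of 24; on the lower side were Abcd3, Pex3, Phyh and Acaa1a at -0.26 ± 0.10, -0.19 ± 0.080, -0.40 ± 0.21 and -0.095 ± 0.066. Septins (2 of 10), serpins and plasminogen genes (3 of 17), macrophage and leukocyte markers (3 of 14) and neural markers (3 of 15) passed on the higher side with list medians of 0.03, -0.02, 0.01 and 0.06, and Plau, the urokinase gene, at 0.28 ± 0.25.

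The other 47 lists did not reach the share. Members that were higher and lower in all 4 pairs numbered 6 and 3 of 43 for Hox genes, 3 and 4 of 29 for imprinted genes, 5 and 1 of 36 for interferon response, 7 and 7 of 54 for Wnt ligands and receptors, 1 and 2 of 27 for smooth muscle type contractile genes and 0 and 4 of 29 for immediate early genes. Of the 9 NEDD4 family ligases, Smurf2 was lower and Hecw2 higher in all 4 pairs, the other 7 having mixed signs.

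Families were also read from symbols alone, as genes that share the letters before the first digit, with 275 families of 8 or more members. After Cct (5 of 9), the highest shares on the higher side were in Psmd, regulatory subunits of the proteasome (7 of 13), Nup, nucleoporins (10 of 19), Mcm (5 of 10), Nop, nucleolar proteins (4 of 8), and Exosc, subunits of the RNA exosome (4 of 9). Muc, the mucins, had the same share as Exosc, 4 of 9, with a median difference of 0.04. Exosc7 differed by 0.15, 0.34, 0.27 and 0.24 in the pairs. On the lower side were Stk, serine/threonine kinases (7 of 18), with Stk38l at -0.34 ± 0.11 and no overlap, Emc, of the membrane protein insertion complex (3 of 8), and Ranbp, Ran-binding proteins (3 of 8). Ranbp2, a nucleoporin that binds Ran, did not overlap at -0.25 ± 0.074. Pik, mostly phosphoinositide kinase subunits (5 of 15), Txndc (3 of 9) and Ubxn (3 of 9) followed, with Pik3ip1 and Pik3r3 at -0.44 ± 0.14 and -0.75 ± 0.24. The median differences of Ranbp, Pik, Txndc and Ubxn were -0.09, -0.08, 0.0 and -0.02, so no direction is read for these families as a whole.

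Among 37 families of 30 or more members, looked at after the values were seen, 6 had a share past 2 times that over all autosomal genes. The family with the most such members was Zfp, mostly zinc finger proteins of nuclear DNA binding, with 81 of 322 lower in all 4 pairs (25.2%) and 8 higher (2.48%). In the fit 241 of the 322 were lower, and in both early pairs 155 were lower (48.1%). The medians in the pairs were -0.10, -0.01, -0.04 and -0.22, so that the C57B6 late pair, where the median over all genes was 0.08, was the closest to 0. Zfp322a stood at 0.21, 0.00090, 0.42 and 0.13 in wild-type and -0.00090, -0.68, -0.028 and -0.43 in Smurf2-/- arrays, with no overlap between genotypes (difference -0.47 ± 0.089). Zfp101 and Zfp943 differed by -0.49 ± 0.093 and -0.40 ± 0.094. The related Zbtb family of zinc finger proteins was lower in 10 of 41 and higher in 0, with Zbtb43 at -0.34, -0.52, -0.22 and -0.37 in the pairs, and no overlap. Of the 322 Zfp genes 25 were in the bright class, against 3602 of all 16906.

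Of the other large families, genes named Rab, mostly GTPases that direct vesicle traffic, were lower in 15 of 66 and higher in 2; Rab11b of recycling endosomes and Rab5a of early endosomes showed no overlap at -0.47 ± 0.11 and -0.26 ± 0.076. Genes named Wdr, for proteins with WD repeats, were higher in 16 of 60 and lower in 4, with Wdr36 at 0.24 ± 0.090. The Ddx helicase genes were higher in 8 of 32 and lower in 5, with Ddx56 at 0.35 ± 0.12. The median differences of Rab, Wdr and Ddx were -0.03, 0.05 and 0.08, and 38 of the 66 Rab genes were lower in the fit. No direction is therefore read for these families as a whole. Mrpl genes, for the large subunit of the mitochondrial ribosome, were higher in 12 of 48 and lower in 0. Mrps genes, for the small subunit, were higher in 2 of 29 (6.90%) and lower in 0. The median differences were alike, 0.10 for Mrpl and 0.11 for Mrps, so no difference between the subunits is read from these counts. Mrpl12 differed by 0.24, 0.74, 0.23 and 0.46 in the pairs and Mrpl9 by 0.39 ± 0.11 without overlap.

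By position, the share of genes higher in all 4 pairs ranged from 7.44% on chromosome 6 to 14.1% on chromosome 11, and the share lower from 5.69% on chromosome 5 to 12.6% on chromosome 2. Smurf2 itself lies on chromosome 11. Of the 15 measured genes on either side of it, 7 were higher and 2 lower in all 4 pairs, with a median difference of 0.05. The neighbour Kpna2 was higher and Ddx5, a helicase gene on the other side, lower at -0.33 ± 0.13, and Prkca, for a protein kinase C, was higher at 0.38 ± 0.14, in all 4 pairs each.

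The difference between the genotypes was wider at late passage. The SD of the pair differences over autosomal genes was 0.29 and 0.21 in the early pairs of C57B6 and mixed BL and 0.50 and 0.48 in the late pairs, and 261 and 96 genes differed by over 1 in the early pairs against 938 and 774 in the late pairs. Of the genes with one sign in all 4 pairs, the mean late difference exceeded the mean early difference in size for 81.6% of the higher and 81.8% of the lower genes. The same share over all autosomal genes was not taken, and their spread was also wider late. These shares are therefore not read as a trait of the genes of one sign. The median early and late differences were 0.11 and 0.22 among the higher and -0.16 and -0.35 among the lower. For single genes an interaction of genotype with passage class passed the adjusted p in 0 autosomal genes by limma, with 909 at an unadjusted p under 0.05, and the smallest adjusted p was 0.375, for the small heat shock protein gene Hspb1. For genotype by background it was 0 of 16906 and 532, with the smallest adjusted p at 0.939.

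**Figure D5:**
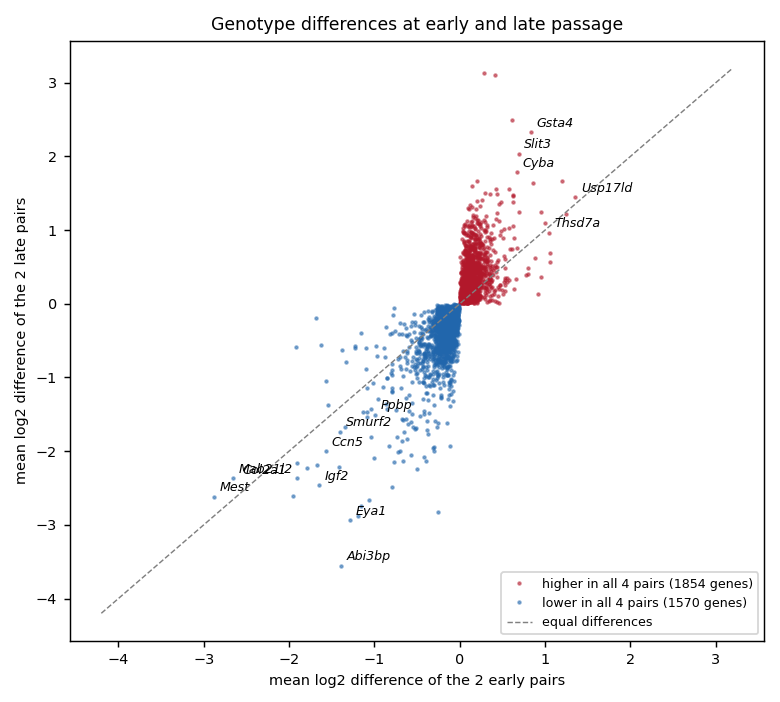
Mean log2 difference (Smurf2-/- minus wild-type) of the 2 early pairs (x axis) against that of the 2 late pairs (y axis) for the 1854 autosomal genes higher and the 1570 lower in all 4 pairs, which confines the points to 2 quadrants. The late difference exceeded the early one in size for 81.6% and 81.8% of the points, a share not taken over all autosomal genes. Eya1, Abi3bp, Gsta4 and Slit3 lie far from the dashed line of equal differences, whereas Mest, Mab21l2 and Thsd7a lie near it.

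The genes farthest apart at late passage among those of one sign in all 4 pairs included 3 outside the ranking, chosen after their values were seen. Dlk1, an imprinted inhibitor of adipocyte differentiation, differed by 0.098, 1.89, 0.72 and 4.32 in the pairs, Ptn, the secreted growth factor pleiotrophin, by 0.13, 2.90, 0.44 and 3.38, and Cd34, a surface sialomucin of stromal progenitors, by 1.09, 1.63, 0.13 and 3.36. In each of them the mixed BL late pair was the widest apart and at least 1 early pair differed by under 0.2.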

How the data were processed

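The authors deposited log2 values for 24169 transcript clusters on 8 Affymetrix arrays of total RNA, 1 array per combination of genotype, background and passage class. Per the deposited values, every cluster was centred on its median over the 8 arrays (largest remaining median 5e-07). How arrays were normalised and probes summarised is not given in the labels or the file. The submitters' processing notes name the builds mm8 and mm9 and no use for them. The 19134 clusters with 1 gene symbol were named from the platform annotation and updated through gene identifiers (19067), and the 899 genes with several clusters were averaged.

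Genotype was tested with limma 3.58.1 in R 4.3.3 with background and passage class as terms, 4 residual degrees of freedom and Benjamini-Hochberg adjustment over 17501 genes, after a test on simulated data. The number of arrays limits the precision. Tables and plots used Python 3.11.15 with pandas 2.3.3 and matplotlib 3.10.9. Members and gene lists were chosen with earlier results of these data known. Named genes were the 12 per direction of smallest p, the 10 per direction of largest smallest pair difference and up to 4 members per list or 3 per family. Large families, the bright class and genes next to Smurf2 were added after the values were seen. Promoter windows of 300 bases came from RefSeq tables matched by gene identifier, 13250 of the 16906 autosomal genes having one. Samples sharing a number share background and passage class by label, which the fit holds as terms.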

Additional observations from a re-analysis of the deposited data

Results flagged for a closer look

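Among 80 groups of 4 arrays over 40 named genes, 3 held an array set apart from the other 3, by a gap that was more of the group's range than Dixon's 95% criterion allows. Chance alone would mark about 1 group in 20. The wild-type mixed BL early array had the highest value of Gsta4 in its group, 1.67. For Cyba, the Smurf2-/- mixed BL late array lay at -1.32, the lowest of its group. For Ccn5, the wild-type C57B6 early array was the highest of its group at 1.48.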

How the results depend on the processing

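The call of Smurf2 was sensitive to the fit. The number of autosomal genes past an adjusted p of 0.05 was 1 in the fit reported and with a mean-variance trend. It was 0 with each transcript cluster on its own (1422 of 18477 at an unadjusted p under 0.05), with no replicate block (699 of 16906), with the 4 pairs as a replicate block (1456), with robust eBayes (1222), after quantile normalisation (1169), with autosomal genes only (1260) and, as an alternative chosen after seeing the data, with bright genes only (327 of 3602). With each of the 8 arrays left out in turn it was 0 to 0, with 646 to 1710 at an unadjusted p under 0.05. The Smurf2 difference stayed near its size while its adjusted p moved. It was -1.58 and -1.56 for its clusters (adjusted p = 0.0941 and 0.0517), -1.57 with no replicate block (0.209), -1.57 with the 4 pairs as a replicate block (0.245), -1.57 with robust eBayes (0.0569), -1.46 after quantile normalisation (0.226) and -1.57 over autosomal genes only (0.231). With 1 array left out it was -1.69 to -1.49. The cause of these losses was not tested. Genes with the same sign in all 4 pairs numbered 1630 higher and 1531 lower after quantile normalisation, 1704 and 1813 with each pair centred on its median, and 370 and 493 when every pair had to differ by at least 0.1. The other 255 named genes, with 3962 values under these alternatives, were chosen for one sign in all 4 pairs and were not called, so that they kept direction and stayed uncalled says nothing about stability. The medians of 46 of the 53 lists described kept their sign, and 7 changed it under some alternative: fatty acid oxidation, glutathione S-transferases, serpins, integrins, the EGF family, Sox, Fox and T-box factors and macrophage markers.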

Other observations

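Olfactory receptor genes, which fibroblasts are not known to use, were higher in all 4 pairs in 27 of 321 members of the symbol family Olfr (8.41%) and lower in 5 (1.56%). The small heat shock protein gene Hspb1 was higher in Smurf2-/- in both early pairs, by 0.81 and 0.34, and differed by -2.37 and -2.51 in the late pairs. Aif1l differed by -0.10 and -0.17 in the C57B6 pairs and by -1.13 and -1.15 in the mixed BL pairs. Neither interaction passed the adjusted p by limma (0.375 for passage class in Hspb1 and 0.939 for background in Aif1l).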
